A study of Mus musculus with 18 samples.

Results

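Cartilage of the injured knee was compared with cartilage of the contralateral knee 7 days after rupture of the anterior cruciate ligament (ACL). The comparison took the 3 libraries labelled as right, injured knees and the 3 labelled as left, contralateral knees at day 7, which are 6 of the 18 libraries sequenced. All mice were male C57Bl/6J of 12 weeks, and each day 7 library was a pool of cartilage from 4 mice. A single mechanical load had ruptured the ligament of the right knee, and the left knee of the same mice was not loaded. The tissue was cartilage of the femoral condyles, cut along the tidemark, the border between uncalcified and calcified cartilage. Total RNA without ribosomal RNA was sequenced. The fit also held 6 libraries of naïve, uninjured mice sampled with day 7 and, at day 1, 3 injured and 3 contralateral libraries. The contralateral knees came from injured animals, so that they are not untouched controls, and pools of the 2 sides cannot be matched by mouse from the labels. Nothing in the labels says more than that the pools are separate samples, so the errors below measure the spread between these pools.

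Articular cartilage is a tissue without vessels in which chondrocytes keep up a matrix of collagen II and aggrecan. Loss of the ligament makes the joint unstable, and the cartilage surface, synovium and joint margin then lay down fibrous matrix and new cartilage, while proteinases break down the old matrix. Collagens I, III and V, periostin, tenascins and lysyl oxidases are known from fibrous repair tissue, tendon and ligament, and collagen II, aggrecan and Sox9 from hyaline cartilage.

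Libraries are named by their number: the contralateral libraries are 13, 14 and 15, the injured ones 16, 17 and 18, and values are given in this order. Their totals were 19192253, 21200210 and 29794566 estimated counts in the contralateral and 26931502, 19296475 and 25586471 in the injured group. Contralateral library 13 stood apart. Mitochondrial genes held 0.914% of its gene counts, against 6.06% and 6.37% in the other contralateral and 3.65%, 7.21% and 4.81% in the injured libraries. Nuclear non-coding genes held 35.7% of it and between 12.3% and 20.5% of the 5 others, and its 10 most abundant genes held 42.5%, against 18.4% to 29.8%. It also had the fewest genes with more than 3 counts, 19958, where the others had 20919 to 23557. The total, the unmatched, mitochondrial and non-coding shares, the share of the 10 most abundant genes and the number of genes over 3 counts overlapped between the groups (2-sided exact permutation tests of 3 against 3 libraries, p from 0.4 to 1). Such a test cannot give a p below 0.1. The comparison of injured with contralateral cartilage was also computed without library 13. The study removed a library with a low mapping rate without naming it, and whether that was library 13 cannot be told from the labels.

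The label of the samples, chondrocyte, was checked against marker genes. All 10 chondrocyte markers were detected in every library, with summed levels of 680, 704 and 684 TPM (the level of a transcript scaled to its length and to the total of the library) in the contralateral and 632, 822 and 871 TPM in the injured libraries. Erythroid markers were far more abundant. They summed to 27383, 41764 and 36481 TPM in the contralateral and 21254, 21255 and 17287 TPM in the injured libraries, with the beta globin Hbb-bs the most abundant. Neutrophil and marrow myeloid markers summed to between 3376 and 19495 TPM, and growth plate, osteoblast, osteoclast, muscle and macrophage markers were present too. The libraries thus held RNA of marrow, bone and other joint tissues beside cartilage. In bulk RNA of this kind, a change in the number of cells of a type and a change in RNA per cell cannot be told apart. Levels within a gene are given below as normalised CPM, counts scaled to a library total adjusted by trimmed mean (TMM) factors, but not to length. These factors were 0.696, 1.08 and 1.01 in the contralateral and 0.838, 0.829 and 0.852 in the injured libraries. TPM had no such adjustment and can shift with the make-up of a library. Schwann and nerve markers summed to 148, 159 and 166 CPM but to 7.53, 29.2 and 23.2 TPM in the contralateral libraries. An order of libraries in TPM is given as a description only.

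**Figure D1:**
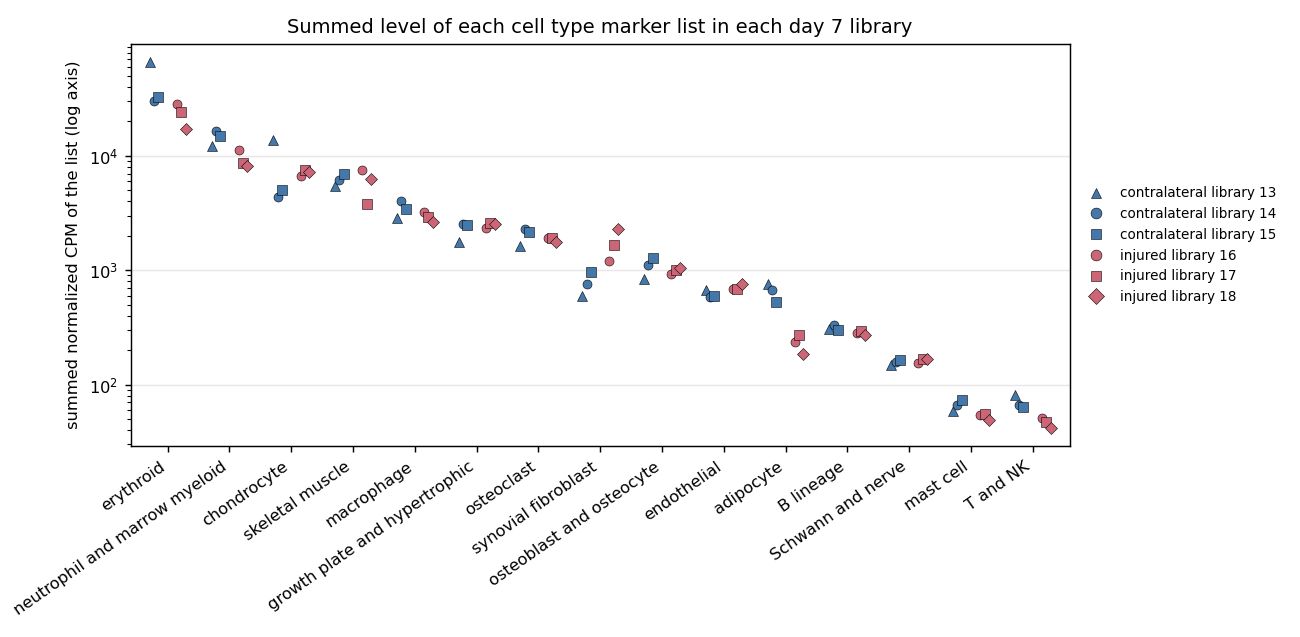
Summed normalised CPM of 15 lists of cell type markers (log axis) in each of the 6 day 7 libraries, 1 point a library. Erythroid markers had the highest sums in every library, contralateral library 13 lay apart in the erythroid and chondrocyte lists, and the adipocyte sums of the injured libraries lay below all contralateral ones.

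Of 21262 genes tested, 1984 were higher and 686 lower in injured cartilage at a false discovery rate (FDR) of at most 0.05 and at least 1.5-fold, which is 9.33% and 3.23% of the genes tested. A gene that met both limits is called higher or lower here. The median log2 fold change was 1.16 among the higher genes, of which 330 differed at least 4-fold, and −0.77 among the lower ones, of which 37 did. All 3 injured libraries lay above all contralateral ones for 1967 of the 1984 higher genes. Of the 686 lower genes, 637 lay below in each injured library. Over all genes tested, 18.6% lay above in every library and 14.3% below. Without library 13, 2030 genes (9.31% of 21808 tested) were higher and 434 (1.99%) lower. Of the 1984 higher genes 1741 were called again without it, but of the 686 lower genes only 232, although 685 kept their sign. The higher genes therefore rested little on library 13, whereas most calls of lower genes needed it. The lower genes also depended on other libraries: 279 were called without injured library 18, 426 without injured library 17 and 1058 without contralateral library 15. They depended on the fit and the tool too, with 279 called in a fit of only the 6 libraries and 452 by limma-voom.

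**Figure D2:**
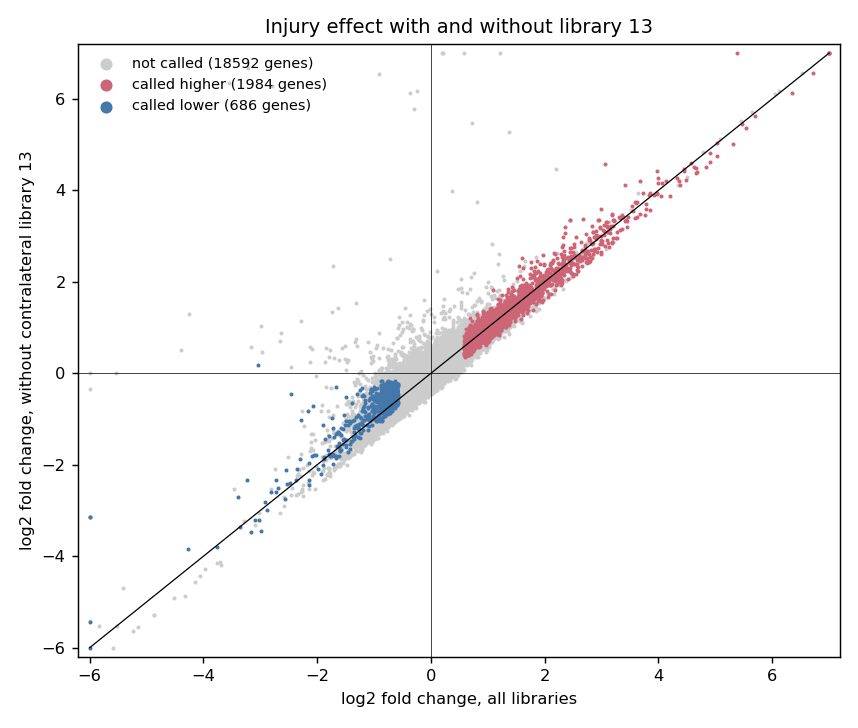
Log2 fold change of every tested gene, injured against contralateral, with all libraries (x axis) and without contralateral library 13 (y axis), with the line of equality. Values beyond the axis limits are drawn at the edge, and called higher genes (red) lay along the line and called lower genes (blue) lay mostly above it, nearer to 0 without library 13.

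C1qtnf3, which encodes a secreted protein of the C1q/TNF-related family made by growing cartilage, had the largest rise of the protein-coding genes above 5 CPM. It lies on chromosome 15 (10952332 to 10980150, GRCm38). Its normalised expression was 4.68, 7.44 and 8.08 CPM in the contralateral and 596, 674 and 892 CPM in the injured libraries, a fold change of 105 or 6.72 on the log2 scale (standard error, SE, 0.37; FDR 8.72e-09). The lowest injured library was thus far above the highest contralateral one, and the naïve libraries had a median of 8.70 CPM. Moxd1, which encodes a copper monooxygenase-like protein of the endoplasmic reticulum, rose from 0.468, 0.535 and 0.7096 CPM to 22.2, 29.7 and 41.3 CPM (log2 fold change 5.71, SE 0.67). Lrrc15, a membrane protein known from activated fibroblasts, was at 1.95, 1.47 and 5.41 CPM in the contralateral and 110.1, 132 and 190.1 CPM in the injured libraries (log2 fold change 5.55, SE 0.51). Tnn, which encodes the matrix protein tenascin-W, had 17.8, 13.7 and 26.1 CPM and 675, 817 and 1086 CPM (log2 fold change 5.48, SE 0.36). In all these genes the groups were far apart and library 18 was the highest of the injured libraries. The 6 others of the 10 coding genes with the largest rise were Crabp2, which encodes a retinoic acid-binding protein, Postn, Mest, Aspn, Fndc1 and Agtr2, which encodes the type 2 angiotensin II receptor, with log2 fold changes between 4.66 and 5.03.

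The promoters of 3 of the 10 coding genes that rose most are printed because they held any of the motifs searched. Each run holds 250 bases before and 50 bases from the start site (RefSeq, GRCm38.p6), so that the start site is base 251, and capitals mark matches to a motif on either strand. The motifs searched were AP-1 (TGANTCA), the CArG box of serum response factor, TEAD (GGAATG), SMAD (CAGACA), RUNX (TGTGGT) and SOX (AACAATG).
C1qtnf3, chr15:10952082-10952381, plus strand: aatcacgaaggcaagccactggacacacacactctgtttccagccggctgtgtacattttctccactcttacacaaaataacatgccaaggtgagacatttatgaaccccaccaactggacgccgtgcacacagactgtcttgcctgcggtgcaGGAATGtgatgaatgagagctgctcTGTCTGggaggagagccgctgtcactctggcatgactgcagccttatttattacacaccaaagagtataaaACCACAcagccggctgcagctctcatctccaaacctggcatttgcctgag
Lrrc15, chr16:30283205-30283504, minus strand: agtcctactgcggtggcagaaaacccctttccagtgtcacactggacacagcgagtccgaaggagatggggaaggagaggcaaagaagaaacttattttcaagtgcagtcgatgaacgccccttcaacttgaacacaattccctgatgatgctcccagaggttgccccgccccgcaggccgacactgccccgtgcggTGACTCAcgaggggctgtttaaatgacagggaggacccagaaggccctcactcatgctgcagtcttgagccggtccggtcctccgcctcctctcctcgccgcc
Tnn, chr1:160153526-160153825, minus strand: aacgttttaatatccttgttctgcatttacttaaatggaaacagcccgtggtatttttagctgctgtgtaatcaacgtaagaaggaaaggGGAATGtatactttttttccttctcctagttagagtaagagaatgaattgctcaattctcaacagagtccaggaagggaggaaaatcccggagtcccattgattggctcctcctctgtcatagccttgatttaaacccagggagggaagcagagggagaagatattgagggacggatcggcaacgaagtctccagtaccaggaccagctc
The promoter of C1qtnf3 held a TEAD match at bases 155 to 160, a SMAD match at 180 to 185 and a RUNX match at 251 to 256. That of Lrrc15 held an AP-1 match at bases 198 to 204 and that of Tnn a TEAD match at 91 to 96. The promoters of Moxd1, Postn, Mest, Aspn, Fndc1 and Agtr2 held none of these motifs, and Crabp2 had no entry. RefSeq promoters were matched by symbol for 1438 of the 1984 higher, 445 of the 686 lower and 13883 of all 21262 genes. An AP-1 match was in 6.26% of the promoters of higher genes, 5.11% of those of lower genes and 6.13% of all. The shares for the CArG box were 1.44%, 1.06% and 1.36%, for TEAD 15.6%, 12.2% and 13%, for SMAD 17.9%, 20.3% and 17.7%, for RUNX 11.6%, 19.9% and 13.9%, and for SOX 1.98%, 2.12% and 2.60%. These shares describe letters in a window of 300 bases, and none was tested.

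Of all genes tested 9.33% were higher, and of protein-coding genes 11.8%, the shares to set beside the counts of every list below. The lists of connective tissue collagens, collagen folding, matricellular proteins, small proteoglycans and elastic fibres held larger shares, and no difference between lists was tested. Of the 18 collagens of connective tissue that were tested, 15 were higher and none lower, with a median log2 fold change of 2.35, where the median of all genes was −0.05. Col12a1, a collagen that sits on the surface of collagen I fibrils, had 201, 242 and 332 CPM in the contralateral and 2112, 2994 and 3382 CPM in the injured libraries (log2 fold change 3.45, FDR 1.84e-08). Col3a1, the fibrillar collagen of early repair tissue, had 3732, 1190 and 1455 CPM and 21995, 21686 and 24296 CPM (log2 fold change 3.41, SE 0.42). Library 13 was the highest of its group but still far below the injured ones, and without it the log2 fold change of Col3a1 was 4.12. Col14a1 had a log2 fold change of 3.22. The 3 collagens that were not called were Col1a1, Col1a2 and Col6a6. Col1a1, the main collagen of bone, tendon and scar, had 52440, 15476 and 21550 CPM and 51090, 46982 and 54701 CPM, so that in CPM library 13 lay among the injured libraries and the other contralateral ones far below them. Its log2 fold change was 0.77 (FDR 0.188) with library 13 and 1.48 (FDR 0.00609) without it. Col1a2 behaved likewise, with 0.75 (FDR 0.152) and 1.33 (FDR 0.00708). In TPM the collagens of the list summed to 3086, 3337 and 3745 TPM in the contralateral and 8004, 9182 and 11570 TPM in the injured libraries. However, library 13 was low in TPM also where CPM were near level. The integrins summed to 1671, 1650 and 1744 CPM but to 80.9, 235 and 203 TPM in the contralateral libraries. The TPM of library 13 therefore does not show that its collagen level was that of libraries 14 and 15.

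The enzymes and chaperones that fold, hydroxylate, trim and cross-link collagen rose with it. Of the 27 tested, 25 were higher and none lower (median log2 fold change 1.62), and the count was 25 without library 13. P4ha3, a catalytic subunit of prolyl 4-hydroxylase, had 1.403, 2.05 and 2.095 CPM in the contralateral and 41.0, 43.3 and 56.6 CPM in the injured libraries (log2 fold change 4.63, SE 0.72). P4ha2, another such subunit, rose by 2.43 on the log2 scale, and the most abundant member, the collagen chaperone Serpinh1, by 1.62. Lox, Loxl1, Loxl2 and Loxl3, which oxidise lysine for cross-links, were all higher, as were the lysyl hydroxylases Plod1, Plod2 and Plod3. The 2 members that were not called were Loxl4 and Pcolce2.

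Of the 20 matricellular proteins, which bind matrix and cells without carrying load, 17 were higher and none lower (median 1.64), with 17 also without library 13. Postn, which encodes periostin, had 46.4, 94.9 and 117 CPM and 2087, 2906 and 3470 CPM (log2 fold change 5.03, FDR 1.19e-05), with library 13 the lowest of all. Thbs2, an inhibitor of vessel growth, had 72.3, 55.6 and 76.4 CPM and 990.3, 1171 and 1434 CPM (log2 fold change 4.14). Fn1, which encodes fibronectin, rose from 1655, 1959 and 2686 CPM to 6373, 8585 and 10662 CPM (log2 fold change 2.02). With Sparc, Col3a1, Bgn and Postn, Fn1 was 1 of the 5 genes with the largest rise in mean TPM, a level per length, among the genes called higher: mean TPM of Sparc was 673 in the contralateral and 1434 in the injured group, and that of Col3a1 was 181 and 2325. Not called were Spp1, Tnxb and Tgfbi, although Tnxb was lower without library 14 or 15 (FDR 0.0184 and 0.0282). Over the alternatives run, the log2 fold change of Tnxb lay between −2.21 and −0.32. Of the 14 small leucine-rich proteoglycans, which set the width of collagen fibrils, 8 were higher and none lower (median 1.53). Aspn, which encodes asporin, had 13.6, 30.8 and 33.9 CPM and 459.5, 659.8 and 889 CPM (log2 fold change 4.67), Ogn 13.6, 48.9 and 47.4 CPM and 228, 331 and 411 CPM, and Lum, which encodes lumican, 78.4, 123 and 144 CPM and 771, 1025 and 1164 CPM. In each of these 3 genes library 13 was the lowest and the groups did not overlap. Of 18 genes of elastic fibres and microfibrils 13 were higher and none lower (median 1.51). Mfap4 rose from 2.49, 2.54 and 2.33 CPM to 58.3, 48.7 and 68.1 CPM (log2 fold change 4.57), Fbn2, the fibrillin of the embryo, by 4.06 and Fbn1, the most abundant member, by 2.24 on the log2 scale. The log2 fold change of Fbn2 lay between 3.18 and 4.20 over the alternatives run.

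**Figure D3:**
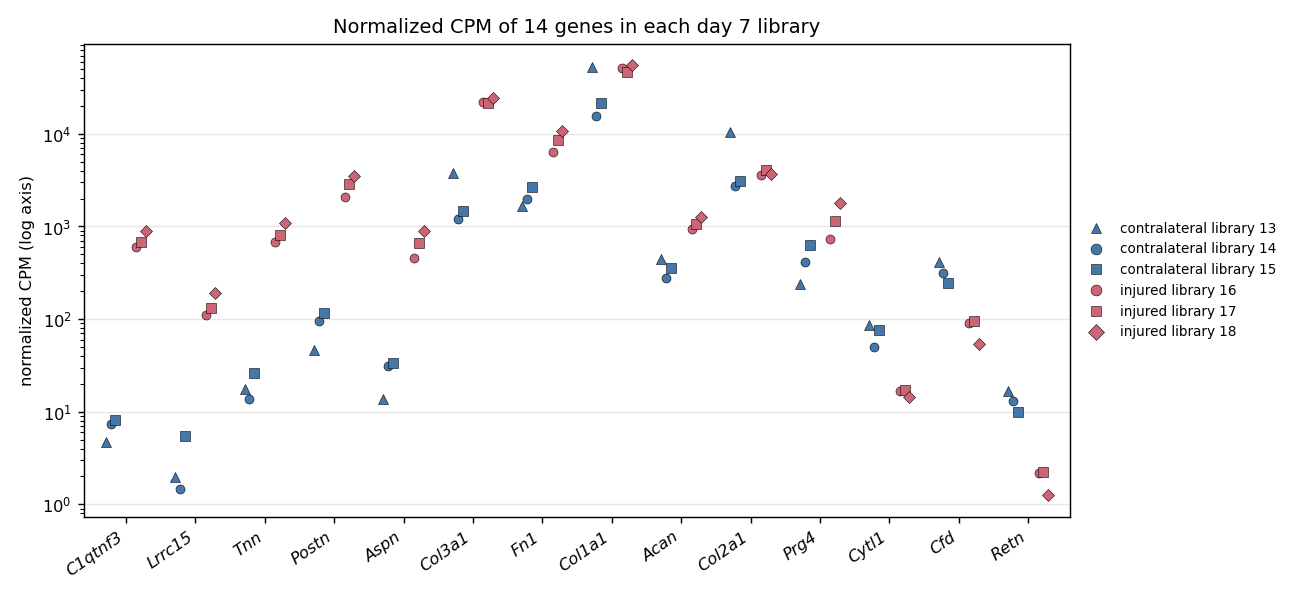
Normalised CPM (log axis) of 14 genes in the 3 contralateral (blue) and 3 injured (red) libraries, 1 point a library. Injured values of C1qtnf3, Lrrc15, Tnn, Postn, Aspn, Col3a1, Fn1 and Acan lay above all contralateral ones, those of Cytl1, Cfd and Retn below them, and contralateral library 13 (triangles) was apart for Col1a1 and Col2a1.

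Genes of hyaline cartilage matrix were called in both directions, and no difference from the lists above was tested. Of 23 tested, 5 were higher and 1 lower, with a median log2 fold change of 0.00. Without library 13 these were 4 and 1, with a median of 0.30, and the summed CPM of the list in the injured group was 1.44 times that of the contralateral group, against 0.965 times with library 13. Higher were Matn4, Acan, Comp, Col11a1 and Hapln1. Acan, which encodes aggrecan, had 448, 278 and 354 CPM in the contralateral and 949, 1064 and 1252 CPM in the injured libraries (log2 fold change 1.60, SE 0.26; FDR 2.38e-04), and Comp 746, 317 and 421 CPM and 1058, 1076 and 1229 CPM (log2 fold change 1.18). Matn4, a matrilin, had 14.6, 5.71 and 7.67 CPM and 41.3, 37.7 and 43.5 CPM (log2 fold change 2.16). Col2a1, the main collagen of cartilage, was at 10448, 2739 and 3128 CPM and 3611, 4116 and 3673 CPM. Library 13 held it at the highest level of all, and the fold change was −0.52 on the log2 scale (FDR 0.386) with library 13 and 0.40 (FDR 0.319) without it, neither of which passed the test. Prg4, which encodes the joint lubricant lubricin, had 240.5, 414 and 624 CPM and 729.6, 1133 and 1771 CPM (log2 fold change 1.51, FDR 0.0504), so that the groups did not overlap but the limit was narrowly missed, which limma-voom (FDR 0.0405), DESeq2 (FDR 0.0459) and the fits without library 15 or 16 (FDR 0.0367 and 0.0358) passed. Sox9, the master transcription factor of chondrocytes, had 14.1, 15.9 and 19.5 CPM and 40.6, 50.9 and 71.5 CPM (log2 fold change 1.72, SE 0.23). The lower member was Cytl1 (chromosome 5, 37735519 to 37739820), which encodes a small protein secreted by chondrocytes. It had 86.04, 50.2 and 76.6 CPM and 16.6, 17.04 and 14.5 CPM (log2 fold change −2.14, SE 0.42; FDR 0.00152). It kept its call under every alternative run. None of the 9 markers of growth plate and hypertrophic cartilage was called in either direction, among them Col10a1, Ihh, Mmp13 and Spp1. Mmp13, the collagenase of hypertrophic cartilage, had 387, 502 and 497 CPM and 494, 513 and 496 CPM. Of the higher genes, Comp lost its call without library 14 (FDR 0.0517), Hapln1 without library 13, 17 or 18 (FDR 0.128 to 0.147) and Col11a1 without library 14, 15, 17 or 18 (FDR 0.106 to 0.175).

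Genes that break down matrix rose in part. Of 36 matrix proteinases 18 were higher and none lower (median 0.96), and without library 13 these were 17 and 1. Mmp2, a gelatinase of connective tissue, had 141, 118 and 148 CPM in the contralateral and 1094, 1076 and 1421 CPM in the injured libraries (log2 fold change 3.14, FDR 1.84e-08). Adamts16 rose by 3.98 on the log2 scale from 0.935, 0.713 and 1.42 CPM. Mmp3, which encodes stromelysin-1, had 4.36, 2.36 and 4.16 CPM and 29.6, 36.7 and 33.6 CPM (log2 fold change 3.21, SE 1.03; FDR 0.0386), and this call was lost without any 1 of the 6 libraries (FDR 0.0565 to 0.109). The aggrecanase Adamts4 was called higher, whereas Adamts5 had 66.6, 68.7 and 70.1 CPM and 63.98, 71.7 and 68.3 CPM, with overlapping groups. Ctsk, the most abundant member and the main collagenase of osteoclasts, had 410.0, 431 and 392 CPM and 544, 631 and 581 CPM and was not called. Of 11 inhibitors of proteinases, 4 were higher. Timp2 had 213, 225 and 251 CPM and 816, 879.8 and 1272 CPM (log2 fold change 2.11). Timp1, named here after its values were seen, had 10.1, 11.1 and 11.4 CPM and 59.1, 59.3 and 83.3 CPM. Its groups lay well apart, but its FDR was 0.129 in the fit of all 18 libraries and 0.000175 in a fit of the 6 libraries alone.

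Genes that make, bind or trim glycosaminoglycans were higher in 12 of 22 cases and lower in none (median 0.81). Sulf2 and Sulf1, sulfatases that remove 6-O-sulfate from heparan sulfate, had log2 fold changes of 2.86 and 2.58. Has2, a hyaluronan synthase, had 2.65, 4.46 and 3.41 CPM and 19.1, 18.4 and 28.1 CPM (log2 fold change 2.62, FDR 0.0123, and 0.0516 without library 18). The hyaluronan receptor Cd44 was the most abundant of the list and had 214, 362 and 353 CPM and 402, 454 and 492 CPM, with a difference below 1.5-fold that was above it without library 14, 15 or 16 (log2 fold change 0.61 to 0.65).

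Among secreted signals, the groups with the highest share of higher genes were the growth factors of the FGF, IGF and PDGF families (15 of 26, none lower, median 0.82) and the TGF-beta and activin genes (12 of 22, none lower, median 0.78). Igf1, the ligand that drives matrix synthesis in cartilage, had 39.98, 71.8 and 72.05 CPM in the contralateral and 491, 675 and 726 CPM in the injured libraries (log2 fold change 3.36, FDR 3.19e-08). Igf2 had 7.64, 5.84 and 6.83 CPM and 48.95, 61.6 and 89.6 CPM (log2 fold change 3.31), and the binding proteins Igfbp3 and Igfbp4 rose by 2.27 and 1.04 on the log2 scale. Both Igf ligands were thus several times higher in every injured library. The receptor Igf1r was not called, whereas the clearance receptor Igf2r was. Of the TGF-beta ligands, Tgfb2 and Tgfb3 were higher and Tgfb1 was not called. Tgfb3 had 19.3, 21.8 and 25.4 CPM and 74.2, 81.4 and 109 CPM (log2 fold change 1.99). Fstl1, a secreted follistatin-like protein, had 152, 169 and 154 CPM and 979, 1132 and 1269 CPM (log2 fold change 2.83), and Pmepa1, a feedback inhibitor that TGF-beta induces, 43.3, 30.9 and 34.6 CPM and 130, 134 and 168 CPM (log2 fold change 1.99). Of the receptors, Tgfbr2, Acvr1 and Acvr2a were higher and Tgfbr1 and Tgfbr3 were not called, of which Tgfbr3 was higher without library 13 or 16 (FDR 0.00469 and 0.00752).

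BMP and GDF genes were higher in 8 of 26 cases and lower in none (median 0.29). Gdf5, a ligand of joint formation, had 0.468, 0.267 and 0.473 CPM and 6.68, 3.93 and 6.799 CPM (log2 fold change 3.85, SE 0.42). The antagonists Chrd, Chrdl1 and Bmper and the receptors Bmpr1a, Bmpr1b and Bmpr2 were higher as well. None of Bmp2 to Bmp7 was called, nor were the target genes Id1, Id2 and Id3. Id3, the most abundant member of the list, had 86.4, 38.7 and 36.4 CPM and 60.3, 52.8 and 45.3 CPM, with library 13 the highest. In the Wnt list, 19 of 46 genes were higher and 1, Sost, lower (median 0.70). The 3 with the largest rise encode secreted proteins that bind Wnt ligands or their receptors or, for Dkk3, belong to such a family. Dkk3 had 22.6, 11.8 and 16.2 CPM and 213, 257 and 328 CPM (log2 fold change 3.99, FDR 1.19e-07), Sfrp2 11.2, 8.78 and 9.597 CPM and 105, 119.9 and 117 CPM (log2 fold change 3.54), and Sfrp1 2.88, 5.22 and 5.64 CPM and 38.9, 46.3 and 50.8 CPM (log2 fold change 3.28). The groups were far apart in all of these. Of the ligands, Wnt5a, Wnt9a and Wnt16 were higher, and of the receptors Fzd1, Fzd2, Fzd3, Fzd6 and Fzd8, Lrp6, Ror1 and Ror2. The canonical target genes Axin2, Lef1 and Tcf7 were not called, while Nkd1 and Nkd2 were higher. Of 11 hedgehog and PTHrP genes 4 were higher, Pthlh, Gli3, Dhh and Smo, and the targets Ptch1 and Gli1 were not called. Without library 18, Fzd3, Smo and Chrdl1 were not called (FDR 0.0676, 0.0516 and 0.0772), nor were Chrdl1 without library 13 (log2 fold change 0.45) or 17 (FDR 0.0643) and Smo without library 14 (log2 fold change 0.55).

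**Figure D4:**
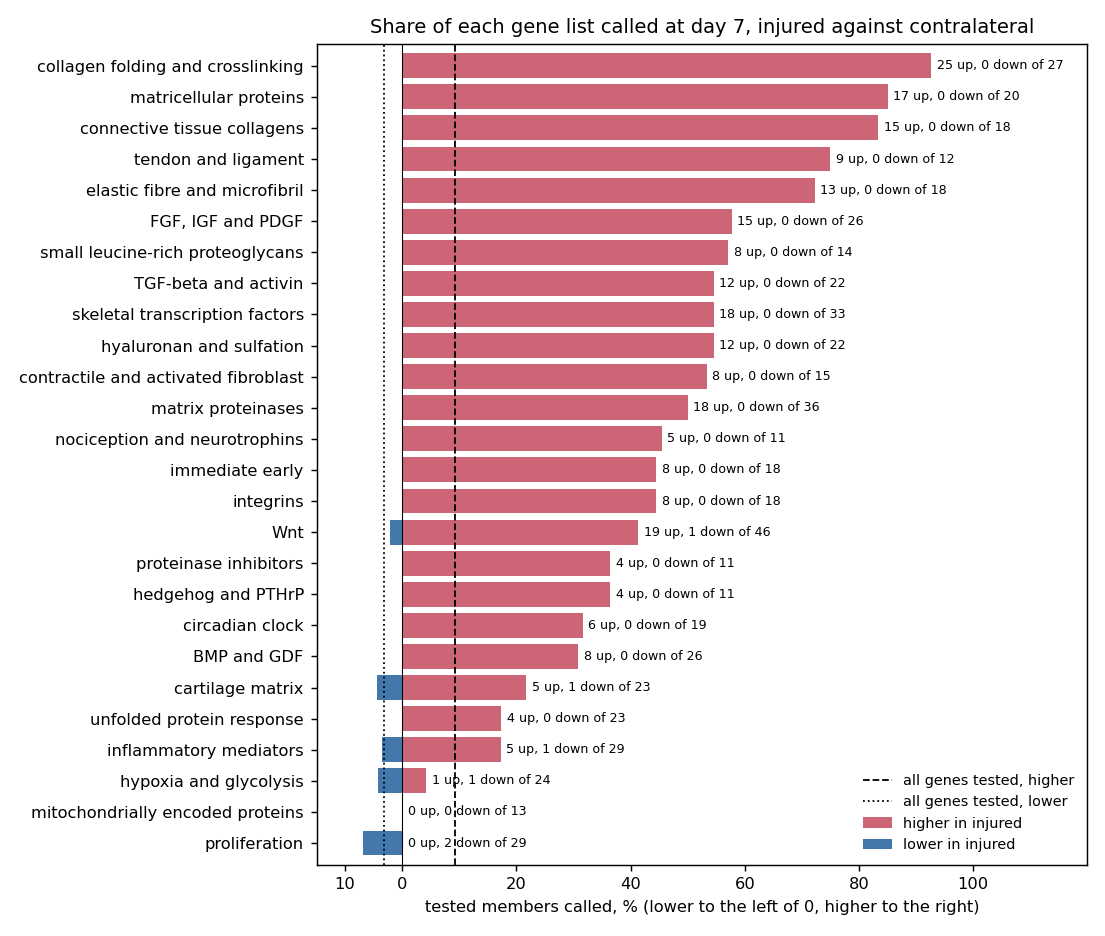
Share of the tested members of 26 gene lists called higher (red, right of 0) or lower (blue, left of 0) in injured cartilage, with the counts beside each bar and dashed and dotted lines at 9.33% and 3.23%, the shares of all genes tested. The largest shares of higher genes were those of collagen folding, matricellular proteins, connective tissue collagens, tendon and ligament, and elastic fibres, and the proliferation, mitochondrial and glycolysis lists had shares of higher genes below that of all genes.

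Transcription factors of the skeleton were higher in 18 of 33 cases and lower in none (median 1.17). Prrx2, a factor of limb mesenchyme, had 1.95, 1.03 and 1.22 CPM in the contralateral and 12.1, 10.9 and 13.97 CPM in the injured libraries (log2 fold change 3.18), Osr2, a factor of joint formation, 1.56, 1.34 and 1.45 CPM and 8.81, 9.38 and 17.5 CPM (log2 fold change 3.04), and Snai1, a repressor known from the shift of epithelium to mesenchyme, 2.65, 2.81 and 3.21 CPM and 11.4, 12.5 and 23.8 CPM (log2 fold change 2.45). Runx1, Sox5, Erg and Nfatc1 were higher too, whereas the osteoblast factors Runx2 and Sp7 were not called. Without library 18 the FDR of Snai1, Erg and Nfatc1 was 0.0591, 0.151 and 0.0691, and Erg without library 13 or 15 (FDR 0.0548 and 0.0525) and Nfatc1 without library 13 (log2 fold change 0.49) were not called either. Of 12 genes of tendon and ligament, which include collagens counted above, 9 were higher and none lower (median 2.33). They included the tendon factors Scx and Mkx and the tendon membrane protein Tnmd, which had 4.99, 6.11 and 5.68 CPM and 89.1, 82.6 and 93.4 CPM (log2 fold change 3.97, FDR 1.23e-05). Of 15 contractile and activated fibroblast genes 8 were higher and none lower (median 1.30). Cthrc1 had 4.44, 9.94 and 11.2 CPM and 145, 185 and 256 CPM (log2 fold change 4.49), Actg2, the smooth muscle gamma actin, 0.857, 0.713 and 0.912 CPM and 5.81, 8.49 and 8.28 CPM (log2 fold change 3.17), and Vim, which encodes vimentin, rose by 1.32 on the log2 scale. Of 18 integrin genes 8 were higher. Itga11, a collagen receptor of fibroblasts, had 16.8, 22.8 and 27.9 CPM and 122, 158 and 214 CPM (log2 fold change 2.86), and Itgb1, the shared beta subunit, 289, 315 and 332 CPM and 582, 651 and 673 CPM (log2 fold change 1.03).

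Of 29 inflammatory genes 5, or 17.2%, were higher and 1 was lower (median 0.56). Without library 13 these were 4 and 3. The higher ones were Tnfaip6, Ptgs2, Il33, Has2 and Il1r1. Ptgs2, the inducible prostaglandin synthase COX-2, had 0.701, 2.59 and 3.21 CPM in the contralateral and 32.3, 27.2 and 66.9 CPM in the injured libraries (log2 fold change 4.20, SE 0.85; FDR 0.00194). Tnfaip6, a hyaluronan-binding protein induced by inflammation, had 2.26, 2.54 and 2.57 CPM and 43.5, 39.98 and 78.2 CPM (log2 fold change 4.44, SE 1.24), with an FDR of 0.018 that was 0.0534 to 0.0594 without library 13, 14, 15 or 18. The lower gene was Il1a, which was not called without library 14, 15, 16 or 18 (FDR 0.0768 to 0.106), and Il1r1 was not called without library 18 (FDR 0.0693). The cytokines and chemokines Il1b, Il6, Tnf, Ccl2 and Cxcl1 were not called. Cxcl1, Ccl2 and Il6 had every injured library above every contralateral one, at low counts: Cxcl1 had 0.156, 0.178 and 0 CPM and 0.772, 0.444 and 2.45 CPM (log2 fold change 3.65, SE 2.09), Ccl2 0.468, 0.624 and 1.08 CPM and 1.68, 2.91 and 3.05 CPM (log2 fold change 1.72, SE 1.58), and Il6 a log2 fold change of 1.43 (SE 1.26). Their fold changes were above 0 under every alternative run, and Ccl2 was called where only the 6 libraries were fitted (FDR 0.0259). Lcn2, the most abundant member, had 217, 1016 and 891 CPM and 694, 496 and 529.8 CPM, with library 13 the lowest of all. Without library 13 Lcn2 and Osm were lower (log2 fold change −0.71 and −0.64, FDR 0.0253 and 0.0344). Of 18 immediate early genes 8 were higher and none lower (median 0.93), with the orphan nuclear receptors first: Nr4a2 had 4.52, 4.37 and 5.74 CPM and 29.6, 28.1 and 70.2 CPM (log2 fold change 3.12) and Nr4a3 2.73, 3.57 and 9.46 CPM and 23.3, 24.5 and 92.6 CPM (log2 fold change 3.11). Library 18 was at more than the level of both other injured libraries together for these genes, and also for Fosb, with 15.03, 6.59 and 32.4 CPM in the injured group (FDR 0.0596 without library 18). Over the alternatives run, the log2 fold change lay between 2.145 and 3.86 for Nr4a3 and between 1.61 and 2.74 for Fosb. Fos, Egr1 and Myc were not called, although Fos had 8.34, 9.54 and 13.4 CPM and 18.6, 19.3 and 22.7 CPM (log2 fold change 0.94, FDR 0.0807) and was higher by DESeq2 (FDR 0.0421) and where only the 6 libraries were fitted (FDR 0.0207). Of 11 tested genes of nociception and neurotrophins 5 were higher: the mechanosensitive channel Piezo2 had 7.09, 8.16 and 8.28 CPM and 66.8, 90.3 and 104 CPM (log2 fold change 3.46, FDR 7.74e-09), and Piezo1, Bdnf and Gfra1 were among those higher at lower folds. Bdnf, which encodes a neurotrophin, was not called without library 18 (FDR 0.0632). Of 19 circadian genes 6 were higher, Npas2, Rora, Bhlhe40, Clock, Nr1d2 and Nfil3, and the core genes Arntl, Per1, Per2 and Cry1 were not called. Npas2 lost its call without any 1 library (FDR 0.0564 to 0.101), Nr1d2 without library 14 or 18 (FDR 0.0566 and 0.0656) and Nfil3 under 7 of 13 alternatives. Nfil3 had a log2 fold change of 0.59, just past the fold limit, and fell under that limit without library 13 (0.58) and under 5 other settings or tools, while without library 18 its FDR was 0.121.

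The remaining lists held few called genes. Of 23 genes of the unfolded protein response 4, or 17.4%, were higher, where 9.33% of all genes and 11.8% of protein-coding genes were. Creb3l1 and Creb3l2, membrane-bound factors that raise secretory capacity, had log2 fold changes of 1.21 and 1.11, while the chaperone genes Hspa5 and Calr were not called. Of 24 genes of hypoxia and glycolysis 1 was higher, Car12, and 1 lower, Slc2a3, the glucose transporter GLUT3, which had 167, 176 and 153 CPM and 117, 95.4 and 88.1 CPM (log2 fold change −0.72, FDR 3.18e-04). None of the 13 mitochondrially encoded protein genes was called, and their summed expression was 2977, 13273 and 12182 CPM in the contralateral and 8225, 9907 and 16185 CPM in the injured libraries, with library 13 the lowest. Of 29 proliferation genes none was higher and 2 were lower, Birc5 and Mcm5 (median −0.42). In CPM all 3 injured libraries lay below the contralateral ones for 22 of the 29, where 14.3% of all genes did, and the list summed to 4970, 5146 and 5400 CPM in the contralateral and 3926, 4384 and 3616 CPM in the injured libraries. This order held in CPM but not in TPM, where the list summed to 453, 1154 and 1004 TPM in the contralateral and 541, 665 and 584 TPM in the injured libraries and library 13 was the lowest of all. Neither Birc5 nor Mcm5 was called lower without library 13, where the median was −0.33. Birc5, which encodes survivin, had 94.1, 54.2 and 56.6 CPM and 47.0, 42.8 and 32.6 CPM (log2 fold change −0.74, FDR 0.00842). Its FDR was 0.0593 without library 13 and 0.0639 without library 18, where the log2 fold change of Mcm5 was −0.45 and −0.58.

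The lower genes included markers of adipocytes and of marrow. Of all genes tested 3.23% were lower, and 1.99% without library 13. Of 8 adipocyte markers 5 were lower and none higher (median −1.68), and without library 13 the lower ones were Retn, Cfd and Plin4. The list summed to 760, 666 and 528 CPM in the contralateral and 234, 273 and 187 CPM in the injured libraries, and none of its members was at 0 in any library. Cfd, which encodes adipsin and was the most abundant member, had 417, 313 and 245 CPM and 90.5, 94.5 and 53.9 CPM (log2 fold change −2.03, SE 0.50; FDR 0.00785), Retn, which encodes resistin, 16.8, 13.1 and 9.97 CPM and 2.18, 2.22 and 1.25 CPM (log2 fold change −2.82, SE 0.79), and Lep, which encodes leptin, 6.86, 3.88 and 4.596 CPM and 1.63, 1.33 and 0.694 CPM (log2 fold change −2.05, SE 0.63). Lgals12, a galectin of fat cells, was lower too (log2 fold change −1.98). Without library 18 the FDR of Cfd was 0.0515 and that of Retn 0.0882, and neither was called. The call of Lep was lost without library 13, 17 or 18 (FDR 0.0741 to 0.138) and that of Lgals12 without library 14, 16 or 18 (FDR 0.0539 to 0.0843). Adipoq, Fabp4 and Plin4 were not called with all libraries. Adipoq had 33.8, 66.7 and 53.9 CPM and 28.8, 36.2 and 25.7 CPM, with overlapping groups.

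Of 11 tested erythroid markers 6 were lower and none higher (median −0.66), where 3.23% of all genes tested were lower. Without library 13 none of these markers was lower. The erythroid markers summed to 65821, 30280 and 32524 CPM in the contralateral and 28312, 24235 and 17329 CPM in the injured libraries, so that in CPM library 13 was about the level of both other contralateral libraries together. In TPM the order turned: the list summed to 27383, 41764 and 36481 TPM in the contralateral and 21254, 21255 and 17287 TPM in the injured libraries, with library 13 the lowest of its group and above all 3 injured ones. Hba-a2, an alpha globin, had 18594, 9175 and 9892 CPM and 8946, 6722 and 5029 CPM (log2 fold change −0.86, FDR 0.0378) and −0.44 (FDR 0.248) without library 13. Klf1, the erythroid transcription factor, had 88.5, 0.0891 and 0.2703 CPM in the contralateral and 0.0454, 0 and 0 CPM in the injured libraries. Its call rested on library 13, since libraries 14 and 15 were near 0 too, and no fold is given. Of 12 neutrophil and marrow myeloid markers 5 were lower and none higher (median −0.69), and without library 13 the 4 lower ones were Cebpe, S100a8, S100a9 and Mmp8. The list summed to 12192, 16617 and 14878 CPM in the contralateral and 11189, 8594 and 8150 CPM in the injured libraries, which did not overlap. In TPM the groups overlapped, with 3376, 19495 and 14125 TPM in the contralateral and 6561, 6032 and 6110 TPM in the injured libraries, so that library 13 lay below all injured ones. Camp, a granule peptide, had 1388, 809 and 765 CPM and 739, 440.1 and 340.4 CPM (log2 fold change −0.96) and Ltf, which encodes lactoferrin, 3573, 3164 and 2899 CPM and 2410, 1714 and 1658 CPM (log2 fold change −0.74). S100a8, the most abundant member, had 764, 3151 and 3020 CPM and 1897, 1632 and 1375 CPM and was not called with library 13, the lowest of all, but was lower without it (log2 fold change −0.89, FDR 0.0146). Camp, Ltf and Hba-a2 were not called without library 13, 17 or 18, with FDRs of 0.0905 to 0.142, 0.0719 to 0.107 and 0.102 to 0.248, and Cebpe not without library 18 (FDR 0.0635). In mean TPM, the 5 lower genes with the largest falls were Hba-a2, Hbb-bt, Ltf and the histone genes Hist1h2ap and Hist2h2aa1. The beta globin Hbb-bs missed the limit (log2 fold change −0.97, FDR 0.0522), and was lower under 6 of 13 alternatives: without library 14 or 15 (FDR 0.0204 and 0.0249), by DESeq2 (FDR 0.0116), with DESeq2 size factors, with no filter on low counts and among protein-coding genes alone. Without library 13 its log2 fold change was −0.34 (FDR 0.438). Hbb-bt and Hist2h2aa1 were not called without library 13, 17 or 18 (FDR 0.0843 to 0.426 and 0.144 to 0.154) and Hist1h2ap not without library 15, 17 or 18 (FDR 0.0689 to 0.125). Both histones and the globins have near-identical copies, among which reads can be split, so that their values are uncertain.

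The other marker lists differed. Their counts stand beside 9.33% higher and 3.23% lower among all genes tested. Among macrophage markers 1 of 12 was lower, the scavenger receptor Cd163 with 92.2, 55.7 and 56.8 CPM and 40.6, 41.7 and 34.4 CPM (log2 fold change −0.81), and none was higher. Without library 13 the fold of Cd163 was below 1.5, and the integrin gene Itgam was the lower member instead (log2 fold change −0.64, FDR 0.00079). Itgam was also lower without library 16 (FDR 0.00532). Of 10 endothelial markers 3, or 30%, were higher, with Pecam1 at 67.2, 89.2 and 88.8 CPM and 132, 140.1 and 155 CPM (log2 fold change 0.80). Of 9 synovial fibroblast markers 3, or 33.3%, were higher, against 9.33% of all genes, Thy1, Ly6a and Cd34. Thy1, a surface protein of sublining fibroblasts, had 15.7, 15.3 and 13.6 CPM and 52.4, 54.1 and 58.6 CPM (log2 fold change 1.89, FDR 2.31e-06). The synovial list summed to 599, 758 and 966 CPM in the contralateral and 1204, 1672 and 2290 CPM in the injured libraries (144, 343 and 406 TPM against 360.3, 593 and 754 TPM, where library 15 lay above library 16), with Prg4 its most abundant member by far and none of its members at 0. The sum of this list thus separated the groups in CPM but not in TPM, which is not adjusted for the make-up of a library. Prg4 was not called. The part of synovial fibroblasts in the rise of the matrix genes was not tested. Of 12 osteoblast and osteocyte markers 1 was lower. This was Sost, which encodes the Wnt inhibitor sclerostin of osteocytes, with 56.7, 17.1 and 27.1 CPM and 12.9, 12.6 and 9.07 CPM (log2 fold change −1.54, FDR 0.00458) and −0.92 (FDR 0.0336) without library 13. Higher were 1 of 10 B lineage markers, Ebf1, and 1 of 6 mast cell markers, Cma1. With 9.33% of all genes higher, these single genes say little about the 2 lists. Ebf1 was below 1.5-fold without library 18 (log2 fold change 0.58), and Cma1 lost its call without any 1 library other than 13 (FDR 0.059 to 0.168). None of the 9 T and NK, 11 skeletal muscle, 8 osteoclast and 7 Schwann and nerve markers was called. The part of fewer marrow and fat cells in the lower genes was not tested.

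Beyond these lists, the 10 coding genes with the largest falls held Cytl1, Klf1 and 3 adipocyte markers. C7, a complement component, had 13.8, 10.9 and 11.9 CPM and 2.997, 1.65 and 1.62 CPM (log2 fold change −2.53, FDR 0.0133, but 0.0547 without library 17 and 0.0693 without library 18). Klhdc7a had 6.702, 9.05 and 8.68 CPM and 2.23, 2.09 and 2.22 CPM (log2 fold change −1.90, SE 0.44) and stayed lower under every alternative. Tpgs1, a subunit of a tubulin polyglutamylase, and Ankrd2, a muscle protein, were at log2 fold changes of −2.09 and −1.86, and neither held: Tpgs1 was not called without library 13, 14, 16 or 17 (FDR 0.0548 to 0.0932) and Ankrd2 not without library 13, 14, 16, 17 or 18 (FDR 0.0658 to 0.168). Of 16120 protein-coding genes 11.8% were higher and 3.33% lower, of 1418 long intergenic non-coding RNA genes 1.48% and 3.10%, and of 1348 antisense genes 1.41% and 2.82%. The shares of lower genes were thus close to each other, and no difference between the kinds was tested.

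To see how far the contralateral knee itself had changed, its 3 libraries were set against the 6 naïve ones. No gene was called by edgeR or limma-voom, while DESeq2 called 31. The naïve libraries hold left and right knees pooled apart, so that left and right pools of the same mice are not independent samples. They were fitted as 6 separate samples here and in the shared spread of the fit of all libraries, so that the p-values may be too small; the fit of only the 6 day 7 libraries does not use them. By edgeR 3220 genes passed at an unadjusted p under 0.05, and the lowest FDR was 0.248. Without library 13 these were 1201 genes and 0.712. A test of whether the injury effect (injured against contralateral) differed between day 7 and day 1 used groups that share no library. It was passed by 852 genes (4.01%), and by 405 without injured library 18. The difference, day 7 minus day 1 on the log2 scale, was above 0 for 791 of the 852 and below 0 for 61. Those below 0 include genes that fell more at day 7, such as Cytl1. Of the 1984 genes higher at day 7, 756 passed, and of the 686 lower genes 48. At day 1 itself no gene was called between injured and contralateral knees.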

How the data were processed

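Cartilage RNA was sequenced as stranded total RNA with paired ends after removal of ribosomal RNA. The authors trimmed the reads with Trimmomatic and quantified 137436 mouse transcripts with Kallisto. Each deposited file gives, for 1 library, estimated counts per transcript, the effective transcript length and TPM, which the authors' tool scaled to transcript length and library total. The genome label of the samples names a human build, whereas the transcript identifiers are those of mouse; gene names and GRCm38 coordinates came from the GENCODE annotation, which matched 98.3% of the transcripts. Unmatched transcripts held up to 3.90% of a library and were left out.

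Estimated counts were summed per gene and rounded. Genes were filtered with filterByExpr, normalised by TMM and tested with edgeR 4.0.16 (R 4.3.3; quasi-likelihood test, Benjamini-Hochberg FDR) in 1 fit of all 18 libraries and 5 groups, without covariates. The study's methods account for samples of the same mouse pool by an estimated correlation and leave out a library with a low mapping rate that they do not name; neither was done here, since the labels give no pools and all 18 libraries were used. The study's own tool, limma-voom (limma 3.58.1), and DESeq2 1.42.0 were alternatives. Normalised CPM describe levels within a gene and TPM levels between genes. The script was tested on simulated counts first. Alternatives changed the normalisation, the filter, the tool, the libraries in the fit, the use of transcript length and the thresholds, and left out each library in turn.

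Genes named in the text were the 10 called coding genes with the largest rise and the 10 with the largest fall (groups not overlapping, at least 5 CPM in the higher group), up to 3 called genes and the most abundant gene of each list, the 5 called genes that rose and the 5 that fell most in mean TPM, and 7 reference genes (Col2a1, Acan, Prg4, Sox9, Col1a1, Postn and C1qtnf3). Other genes given with values were chosen after their values were seen. The comparison, the 26 gene lists and the 15 marker lists were chosen with earlier results of these data known. No column of per-sample values was left unused. Some items are not reported here.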

Additional observations from a re-analysis of the deposited data

Results flagged for a closer look

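The injury effect at day 7 differed from that at day 1 by the interaction test of edgeR for 852 genes, 791 of them with the larger effect at day 7. The difference is given for the 5 genes that rose most and the 5 that fell most among those named first in each direction, and 6 of them passed. These genes were chosen by their day 7 effect, which is part of the difference, so that the choice favoured a large difference.

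For C1qtnf3 the injury effect was 6.72 on the log2 scale at day 7 and 0.10 at day 1, a difference of 6.62 (SE 0.46, FDR 6.64e-07). Moxd1 had a difference of 5.92 (SE 0.87, FDR 0.000683), with −0.22 at day 1, and Lrrc15 one of 5.39 (SE 0.68, FDR 0.000148), with 0.15 at day 1. Tnn differed by 4.84 (SE 0.44, FDR 8.39e-06) and Crabp2 by 3.95 (SE 0.63, FDR 0.00120), with effects of 0.64 and 1.09 at day 1. Cytl1 was at 0.43 at day 1 and −2.14 at day 7, a difference of −2.58 (SE 0.58, FDR 0.0158). The difference did not pass the test for Retn (−3.35, FDR 0.0884), C7 (−3.12, FDR 0.0623), Tpgs1 (−2.17, FDR 0.193) or Klf1 (FDR 0.114).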

How the results depend on the processing

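No paired analysis was possible because pools of the injured and contralateral side cannot be matched by mouse from the labels and the library numbers are not shared between the groups; the limma-voom fit here, unlike that of the study, has no term for the mouse pool. The count of higher genes (1984) stayed within 1.5 times under all 15 alternatives, with 1508 without injured replicate 3 as the lowest of the repeats without 1 library and 2030 without library 13 as the highest. The count of lower genes (686) did not: it was 452 by limma-voom, 279 in a fit of only the 6 libraries, 251 at an FDR of 0.01 and 1310 with no fold limit. Without 1 library it lay between 279 (injured replicate 3) and 1058 (contralateral replicate 3), with 426 without injured replicate 2 and 434 without library 13. The count of genes whose injury effect differed between days (852) was 1286 by DESeq2 and 546 with the transcript length offset. In the repeats without 1 library it lay between 405 (without injured replicate 3) and 1061 (without library 13). No gene differed between contralateral and naïve knees in the other edgeR and limma-voom fits, and 31 did by DESeq2. Of the 216 genes named, 158 were called, and 116 of these kept their call under every alternative fit, while 42 lost it under at least 1 and none changed sign. The calls lost most often were those of Col11a1 and Cma1 (8 of 13 alternatives), Npas2, Nfil3 and Ankrd2 (7 of 13), Klf1 (7 of 12), Mmp3 (6 of 13) and Tpgs1, Pf4, Lep, Il1a, Hbb-bt, Erg and Chrdl1 (5 of 13). Of 58 genes not called, 20 gained a call under at least 1 alternative, Prg4 and Hbb-bs under 6 of 13, and 15 changed sign under some. With the length offset these had log2 fold changes of 0.0022 (Adamts5), −0.077 (Axin2), 0.022 (Id3), 0.099 (Lef1) and −0.21 (Per2), and by limma-voom Id3 had 0.13. In the repeats without 1 library the sign changed within the ranges −0.043 to 0.031 for Adamts5, −0.86 to 0.40 for Col2a1, −0.040 to 0.48 for Gli1, −0.050 to 0.24 for Id1, −0.26 to 0.51 for Id3, −0.093 to 0.20 for Ihh, −0.060 to 0.42 for Il1b, −0.71 to 0.043 for Lcn2, −0.20 to 0.13 for Lef1, −0.043 to 0.30 for Myc, −0.33 to 0.22 for Pcolce2, −0.047 to 0.19 for Runx2 and −0.36 to 0.078 for Tnf. Apart from fewer libraries or a stricter limit, the cause of these shifts was not tested.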

Other observations

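Imprinted genes, which are expressed from 1 parental allele and are known as a group for their part in growth before birth, were listed after the values were seen, so that the following describes them and tests nothing. Over all genes tested, 9.33% were higher and 3.23% lower. Of 34 listed genes 31 were tested, and 18 were higher and none lower in injured cartilage, with a median log2 fold change of 1.16. Without library 13 there were 18 higher genes, and over the other settings between 14 and 18. The fit of protein-coding genes alone did not test the non-coding H19, Rian, Mirg and Meg3, which kept their calls in all 12 settings that tested them. Mest had 3.58, 4.95 and 4.87 CPM in the contralateral and 94.4, 144 and 169 CPM in the injured libraries (log2 fold change 4.91). H19, a long non-coding RNA, had 38.03, 32.4 and 25.3 CPM and 289, 326 and 527 CPM (log2 fold change 3.58), and Dlk1, which encodes a membrane protein that holds back fat cell formation, 0.3897, 0.579 and 0.473 CPM and 3.27, 4.31 and 4.26 CPM (log2 fold change 2.996). In these genes each injured library was several times above each contralateral one. Meg3, Rian, Mirg and Rtl1 of the same cluster as Dlk1 were higher too. The imprinted gene Nnat, in contrast, had 2.65, 6.11 and 5.68 CPM and 2.13, 3.36 and 1.62 CPM and was not called.

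Some of the higher genes carry microRNAs, and mature sequences (RefSeq, GRCm38.p6) are printed for the hosts Dnm3os, Mest and H19. Dnm3os, the non-coding host of miR-199a and miR-214, had 7.01, 8.202 and 9.94 CPM and 24.2, 32.3 and 35.8 CPM (log2 fold change 1.87). Capitals mark the seed, bases 2 to 8.
miR-199a-5p (Dnm3os, chr1:162217844-162217866, plus strand): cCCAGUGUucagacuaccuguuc
miR-199a-3p (Dnm3os, chr1:162217883-162217904, plus strand): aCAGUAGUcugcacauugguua
miR-214-3p (Dnm3os, chr1:162223438-162223459, plus strand): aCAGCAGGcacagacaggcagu
miR-335-5p (Mest, chr6:30741314-30741336, plus strand): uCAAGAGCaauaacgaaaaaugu
miR-675-5p (H19, chr7:142577112-142577133, minus strand): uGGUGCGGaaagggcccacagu
No seed was shared among these 5. These libraries of total RNA do not measure the mature microRNAs, and the values given here are those of the host transcripts.

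Of 12 markers of platelets and megakaryocytes, listed after the values were seen, 7 were lower and none higher (median log2 fold change −0.72), with 6 lower without library 13. Pf4, which encodes platelet factor 4, had 183, 64.9 and 64.9 CPM in the contralateral and 59.99, 51.4 and 39.04 CPM in the injured libraries (log2 fold change −1.05), and −0.35 (FDR 0.281) without library 13; it was not called without library 17 (FDR 0.0691) or 18 (FDR 0.126) either. Of 10 eosinophil markers listed in the same way 5 were lower and none higher, and 8 were lower without library 13. Prg2, the major basic protein, had 679, 635 and 651 CPM and 437, 376 and 326 CPM (log2 fold change −0.79). The platelet and eosinophil lists thus held several lower genes with and without library 13, which decided the erythroid calls. Of all genes tested, 3.23% were lower, and 1.99% without library 13. Over all genes the count of lower genes was 686, and 279 without library 18. The counts in these lists describe them and test nothing.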
